A study of Mus musculus with 4 samples.

Results

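The Wnt genes described here encode the ligands, receptors, secreted modulators and nuclear factors of the Wnt pathway in mouse dorsal root ganglia, which hold the cell bodies of the body's sensory neurons. They were picked by gene symbol alone, as every row of a deposited expression table named for a Wnt, Frizzled (Fzd), Sfrp, Frzb, Dkk, Wif1, Lrp5 or Lrp6, R-spondin (Rspo), Lgr4 to Lgr6, Axin2, Ror, Tcf7-type or Lef1 gene, or for Znrf3, Rnf43, Notum, Porcn or Wls. This rule found 48 of the 14405 rows. Values are FPKM, read fragments scaled by transcript length and by library size, so levels of different genes are compared per length. The test took the genes whose Mut or WT mean reached 1 FPKM, which were 43 of the 48 Wnt genes and 14040 genes in all. Wnt10b, Fzd5, Dkk2, Rspo4 and Znrf3 stayed under that minimum and are given as values with no test. Members of these families without a row in the table are not analysed here.

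The ganglia came from 10-week-old mice of mixed strain, with 2 libraries in each group. The Mut group had the genotype Prdm12-/Fl; AvilCreERT2/+, that is 1 null and 1 floxed allele of Prdm12, which encodes a transcription factor needed for pain-sensing neurons to form, and 1 copy of a Cre recombinase that tamoxifen activates and that is driven from Avil, a gene of sensory neurons. The WT group was labelled wild type, so the groups differed in the null allele, which every cell of a Mut mouse carries, as well as in Cre. The sources used here do not give tamoxifen dosing, the animals behind each library or whether any were pooled, so the p-values measure only the spread between these libraries, which may be technical. Prdm12, the targeted gene, was at 1.05 and 1.50 FPKM in Mut and at 7.58 and 10.7 FPKM in WT libraries 1 and 2 (limma log2 difference -2.14, standard error 0.21, adjusted p = 0.180). Avil was at 102 and 164 FPKM in Mut, against 78.4 and 124 FPKM in WT.

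The libraries also differed in their levels of markers of other tissues. All 12 neuron markers examined were listed, with a summed level of 4506 and 7559 FPKM in Mut libraries 1 and 2 and of 4162 and 5810 FPKM in WT libraries 1 and 2. Skeletal muscle markers, 11 of 12 listed, summed to 125 and 4396 FPKM in Mut and to 279 and 2227 FPKM in WT, and adipocyte markers, 9 of 9 listed, to 319 and 2891 FPKM in Mut and 569 and 962 FPKM in WT. Replicate 2 of each group thus had the higher levels of muscle and fat markers, and their part in the results was not tested. Because FPKM are relative within a library of bulk RNA, fewer cells of a type and less RNA per cell cannot be told apart in any result below.

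Wnt proteins are secreted ligands that carry a lipid added by Porcn and are ferried to the cell surface by Wls. They bind Frizzled receptors with the co-receptor Lrp5 or Lrp6, which stabilises beta-catenin and lets Tcf7-type and Lef1 factors switch on target genes, or they act through Frizzled and Ror receptors on cell shape and polarity. Sfrp, Frzb, Notum and some Dkk proteins are released to restrain the signal. R-spondins, bound by Lgr receptors, instead remove Znrf3 and Rnf43, the ubiquitin ligases that clear Frizzled from the surface. In sensory ganglia the pathway is known for its part in the birth of sensory neurons from neural crest, and in the coverings of the nervous system Wnt ligands are made by fibroblasts of the meninges.

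Promoter sequence is shown for Wnt16, Wls and the pathway's feedback gene Axin2, all lower in both Mut libraries. It is also shown for the ligands Wnt11 and Wnt5b, the only Wnt genes whose matched windows held the longer word searched for. RefSeq on GRCm38.p6 (mm10) gave 40 windows for 31 of the 48 genes. Rspo3 and Notum had no window, and that of Fzd10 is not shown. Each line gives the 250 bases before the annotated start, read 5′ to 3′ on the gene's strand. The longer word was CTTTGAT, a common form of the site bound by Tcf7-type and Lef1 factors, which reads ATCAAAG on the opposite strand. The shorter word was its inner part, CTTTG, so each longer match is also a shorter one. Both strands were searched. Capitals mark every match in either reading, at the longer length where that was present.
Wnt16 promoter, chr6:22287977-22288226, plus strand: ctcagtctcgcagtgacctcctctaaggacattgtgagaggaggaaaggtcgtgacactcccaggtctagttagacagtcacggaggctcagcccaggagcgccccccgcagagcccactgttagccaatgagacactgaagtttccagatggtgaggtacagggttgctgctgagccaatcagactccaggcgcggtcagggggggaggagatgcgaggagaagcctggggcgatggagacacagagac
Wls promoter, chr3:159839400-159839649, plus strand: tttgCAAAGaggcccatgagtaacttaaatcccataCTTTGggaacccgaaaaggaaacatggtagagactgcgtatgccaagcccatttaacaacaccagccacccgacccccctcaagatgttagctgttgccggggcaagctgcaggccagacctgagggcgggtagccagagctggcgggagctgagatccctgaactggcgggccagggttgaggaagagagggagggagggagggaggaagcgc
Axin2 promoter, chr11:108920099-108920348, plus strand: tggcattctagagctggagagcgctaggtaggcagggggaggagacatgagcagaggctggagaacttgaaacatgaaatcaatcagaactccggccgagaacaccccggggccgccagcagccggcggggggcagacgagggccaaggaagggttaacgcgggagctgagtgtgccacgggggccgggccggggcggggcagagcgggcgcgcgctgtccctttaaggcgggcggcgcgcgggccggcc
Wnt11 promoter, chr7:98834862-98835111, plus strand: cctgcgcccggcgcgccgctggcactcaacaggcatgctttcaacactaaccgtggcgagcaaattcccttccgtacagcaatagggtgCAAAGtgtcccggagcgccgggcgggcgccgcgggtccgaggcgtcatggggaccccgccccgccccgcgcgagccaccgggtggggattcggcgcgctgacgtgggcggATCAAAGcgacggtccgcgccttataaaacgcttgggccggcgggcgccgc
Wnt5b promoter at the start nearest the gene's end, chr6:119449387-119449636, minus strand: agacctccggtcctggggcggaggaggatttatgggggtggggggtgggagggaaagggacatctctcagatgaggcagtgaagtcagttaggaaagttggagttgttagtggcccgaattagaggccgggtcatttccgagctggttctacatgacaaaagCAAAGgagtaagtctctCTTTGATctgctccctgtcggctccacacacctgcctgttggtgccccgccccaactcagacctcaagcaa
The longer word began 51 bases before the start in the Wnt11 window shown, which is 1 of 2 annotated Wnt11 starts. The other Wnt11 window held neither word. In the Wnt5b window, 1 of 3 annotated Wnt5b starts, it began 71 bases before the start. The longer word was in 2 of the 40 Wnt windows (5%) and in 3.21% of all 32851 promoter windows. The shorter word was in 18 of 40 (45.0%) and in 48.6% of all. The windows of Wnt16 and Axin2 held neither word and that of Wls held the shorter word at 2 places. These matches describe letters in a window and do not show that a factor binds there.

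Most Wnt genes had lower values in the Mut ganglia, and no single one passed the test over all genes. Of the 43 tested, 26 were lower in both Mut libraries than in both WT libraries (60.5%), where the same held for 19.6% of all genes tested, and 4 were higher in both (9.30%), against 12.5% of all genes. The median log2 difference, Mut minus WT on the log2(FPKM + 1) scale, was -0.36 over the 43 Wnt genes and -0.0048 over all 14040 genes, and 35 of the 43 were below 0 (81.4%, against 50.9% of all genes). With limma, 0 of 43 passed a Benjamini-Hochberg adjusted p of 0.05, as did 0% of all genes. At an unadjusted limma p under 0.05 there were 11 lower Wnt genes (25.6%) and 0 higher, against 3.01% of all genes lower and 1.35% higher (4.36% in either direction). Over all genes that was 422 lower and 190 higher, against 357 lower and 268 higher after quantile normalization. The 11 were Wnt16, Rspo3, Notum, Wls, Fzd10, Wnt5b, Fzd6, Wnt6, Rnf43, Dkk3 and Wnt5a. Notum, Fzd10 and Rnf43, with Fzd9, entered the test only through their WT mean, the higher one. Their calls and these counts are therefore descriptions and not support. The minimum was reached in both groups by 39 Wnt genes, 8 of them among the 11. The share of all genes filtered in the same way was not computed, so these 8 have no background here. With no minimum beyond that of the deposited matrix, all 48 Wnt genes had a median log2 difference of -0.33. Of the 48, 26 were lower in both Mut libraries (54.2%, against 19.3% of all genes) and 11 had an unadjusted limma p under 0.05 (22.9%, against 4.24% of all genes). The matrix held only genes that reached 1 FPKM in at least 1 library. Wnt10b, Fzd5, Dkk2 and Znrf3 did so only in WT, so these counts too are descriptions and not support. With 2 libraries against 2, the smallest p of an exact two-sided permutation test is 0.333.

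**Figure D1:**
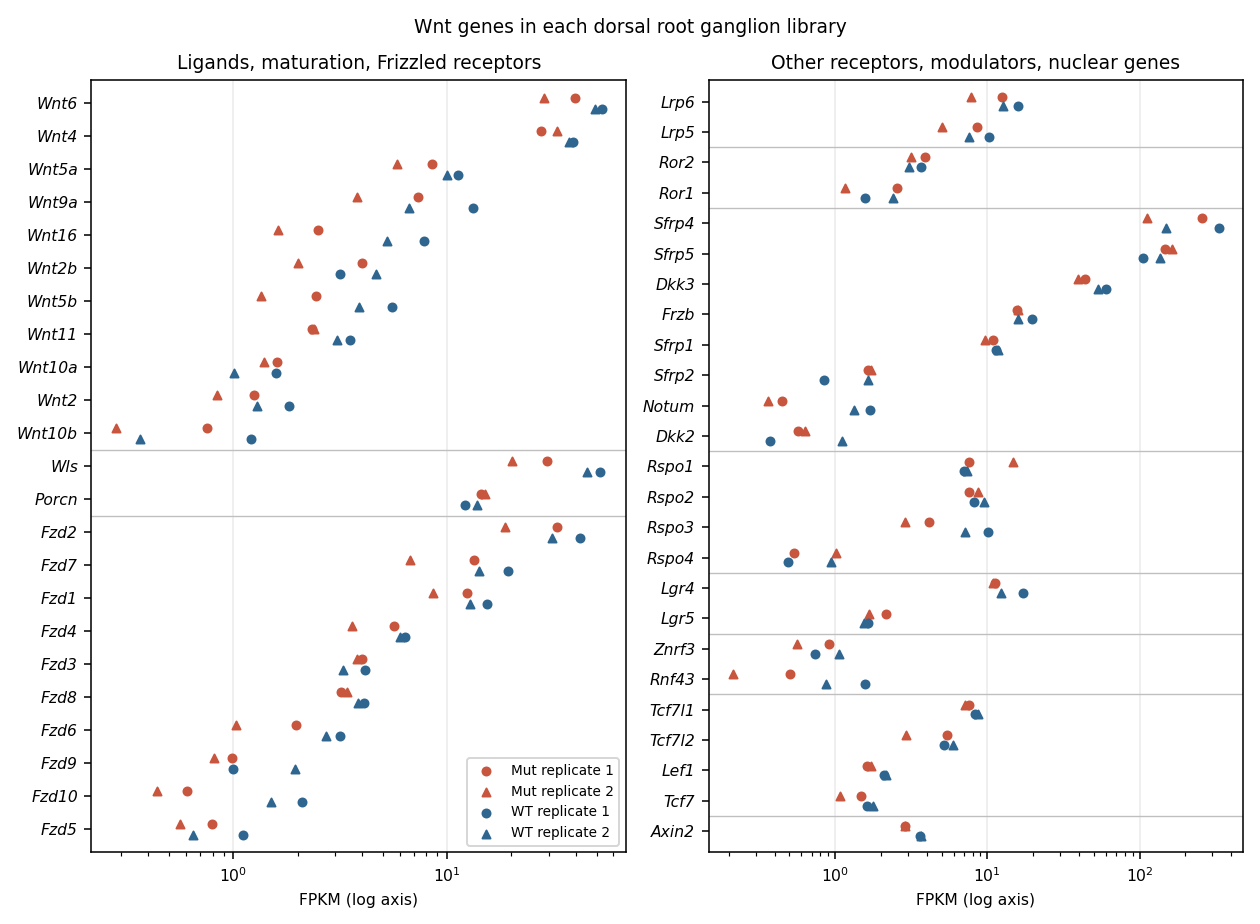
FPKM on a log axis of the 48 Wnt genes, grouped by role and ordered by level, with Mut libraries in red above WT libraries in blue and circles and triangles for replicates 1 and 2. The red points lie left of the blue ones for 26 genes, among them Wnt16, Wls, Notum and Axin2, and right of them for Porcn, Sfrp5, Rspo1 and Lgr5.

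The size of these counts depended on single libraries. Without Mut 2 the number of Wnt genes at an unadjusted p under 0.05 was 7 (16.3%, against 3.44% of all genes), and the median log2 difference over the Wnt genes was -0.18. Without WT 1 the number was also 7 (15.9%, against 3.12% of all genes). Without Mut 1 it was 21, of which 20 were lower and Rspo1 was higher, while 12.8% of all genes then passed that p. Mut 2 was the lowest library for 29 of the 43 Wnt genes (67.4%, against 31.3% of all genes tested) and WT 1 the highest for 26 (60.5%, against 23.6%). The genes Wnt16, Rspo3, Wls and Wnt5b, which reached the minimum in both groups, stayed at an unadjusted p under 0.05 with each library left out in turn. So did Notum and Fzd10, which reached it in WT alone. Wnt6, Wnt5a and Dkk3 did not reach that p without Mut 2, without WT 1 or without WT 2. Fzd6 did not reach it without Mut 2 or without WT 1, nor did Rnf43 without Mut 2.

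**Figure D2:**
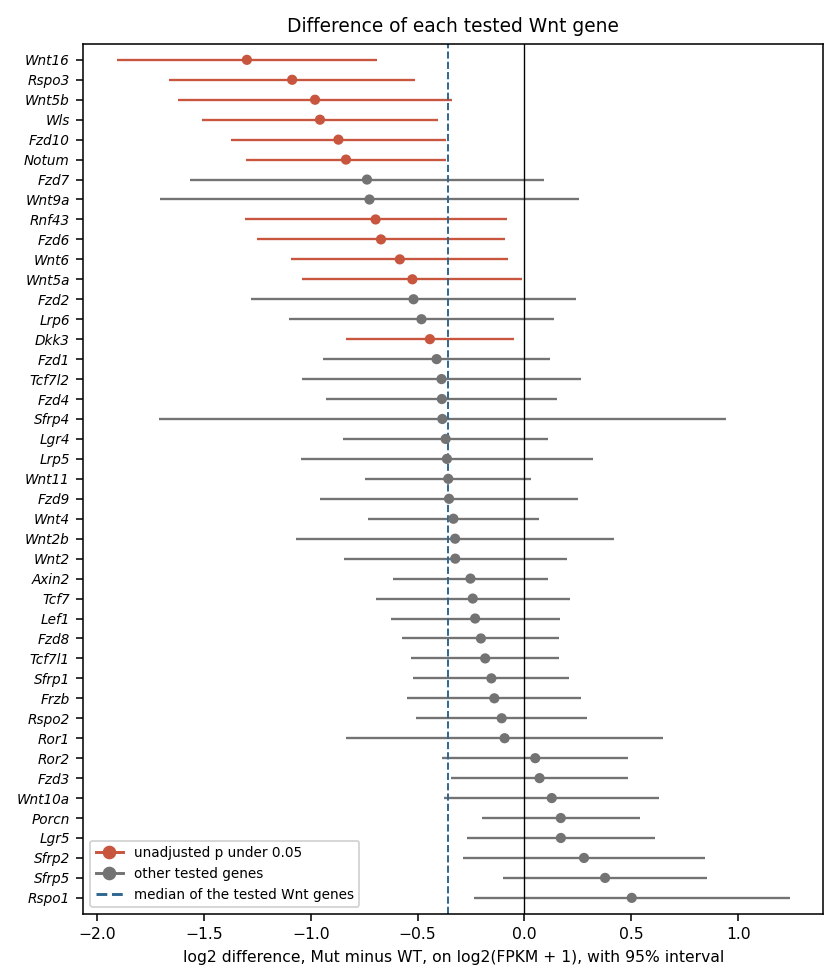
Log2 difference on log2(FPKM + 1), Mut minus WT, with its 95% interval from limma, for the 43 tested Wnt genes in order of size, red where the unadjusted p was under 0.05. The 11 red intervals all lie below 0, from Wnt16 at -1.30 to Dkk3 at -0.44, and the dashed line marks the median of -0.36.

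Among the ligands, 7 of the 10 tested were lower in both Mut libraries and 0 were higher in both, against 19.6% and 12.5% of all genes. All 11 listed ligands summed to 97.8 and 80.5 FPKM in Mut and to 141 and 122 FPKM in WT. Wnt16 differed most. It was at 2.48 and 1.62 FPKM in Mut libraries 1 and 2, against 7.82 and 5.24 FPKM in WT libraries 1 and 2. The highest Mut value was less than the lowest WT value, and the means of 2.05 ± 0.609 and 6.53 ± 1.82 FPKM (SD, n = 2 each) made it 3.19-fold lower in Mut. By limma it differed by -1.30 on the log2 scale (standard error 0.24, 95% interval -1.91 to -0.69, unadjusted p = 0.00234, adjusted p = 0.493). The authors' deposited table, from their own test, lists Wnt16 with a log2 change of -1.67, taken with no pseudocount, and a q-value of 0.0225. Wnt16, a ligand known for its role in bone and blood stem cells, lies on chromosome 6 at 22288227 to 22298522 on the plus strand (mm10).

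Wnt5b and Wnt5a, close relatives best known for signalling that does not use beta-catenin, were both lower in both Mut libraries. Wnt5b was at 2.45 and 1.35 FPKM in Mut and at 5.50 and 3.86 FPKM in WT, 2.46-fold lower (limma log2 difference -0.98, standard error 0.26, unadjusted p = 0.0105, adjusted p = 0.790). Wnt5a was at 8.52 and 5.82 FPKM in Mut and at 11.3 and 9.96 FPKM in WT, 1.48-fold lower (log2 difference -0.52, standard error 0.21). For both genes the order of the 4 libraries was WT 1, WT 2, Mut 1, Mut 2 from high to low. Without Mut 2 the log2 difference of Wnt5a was -0.28.

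Wnt6 was the most abundant ligand, with Wnt4 next. Wnt6 was at 39.7 and 28.5 FPKM in Mut and at 52.8 and 49.0 FPKM in WT, 1.49-fold lower (log2 difference -0.58, limma unadjusted p = 0.0314). Without Mut 2 its difference was -0.35 (unadjusted p = 0.112), and without WT 1 the unadjusted p was 0.140. Its neighbour Wnt10a, which lies 6193 bases from Wnt6 on chromosome 1, stood at 1.60 and 1.39 FPKM in Mut and 1.59 and 1.01 FPKM in WT, with overlapping groups. Wnt4, a ligand best known from kidney and gonad development, was at 27.5 and 32.6 FPKM in Mut and at 38.7 and 37.2 FPKM in WT, a log2 difference of -0.33. For Wnt6 and Wnt4 the groups did not overlap, and for Wnt4 it was Mut 1 that had the lowest value.

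The other ligands had at most 13.2 FPKM. Wnt9a was at 7.32 and 3.78 FPKM in Mut and at 13.2 and 6.62 FPKM in WT, and Mut 1 was above WT 2, so the groups overlapped. Its log2 difference was -0.73 with all libraries and -0.27 without WT 1. Wnt11, at 2.32 and 2.37 FPKM in Mut and 3.52 and 3.06 FPKM in WT, did not overlap (log2 difference -0.36). Nor did Wnt2, at 1.25 and 0.836 FPKM in Mut and 1.82 and 1.29 FPKM in WT. Wnt2b overlapped, at 3.98 and 2.00 FPKM in Mut and 3.15 and 4.65 FPKM in WT, as did Wnt10b, at 0.752 and 0.282 FPKM in Mut and 1.21 and 0.365 FPKM in WT.

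The 2 genes that every Wnt ligand depends on lay on opposite sides. Wls, which carries finished ligands to the surface, was at 29.3 and 20.2 FPKM in Mut, against 51.7 and 44.9 FPKM in WT. Its means were 24.8 ± 6.46 and 48.3 ± 4.84 FPKM (SD, n = 2 each), 1.95-fold lower in Mut without overlap (limma log2 difference -0.96, standard error 0.22, 95% interval -1.51 to -0.41, unadjusted p = 0.00599, adjusted p = 0.660). Porcn, the enzyme that adds the lipid, was at 14.4 and 15.0 FPKM in Mut and at 12.1 and 13.8 FPKM in WT. It was higher in both Mut libraries by 0.17 on the log2 scale, with a 95% interval of -0.20 to 0.54. Wls lies on chromosome 3 at 159839672 to 159938664 and Porcn on the X chromosome.

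The Frizzled receptors all bind Wnt ligands at the cell surface. Of 9 tested, 7 were lower in both Mut libraries and 0 were higher in both, against 19.6% and 12.5% of all genes. Summed, the 10 listed Frizzled genes stood at 75.6 and 47.6 FPKM in Mut and at 98.5 and 77.6 FPKM in WT. Fzd10 was furthest apart by ratio, at 0.610 and 0.441 FPKM in Mut and 2.10 and 1.50 FPKM in WT, 3.43-fold lower (limma log2 difference -0.87, standard error 0.20, unadjusted p = 0.00604, adjusted p = 0.660). The authors' deposited table lists Fzd10 with a log2 change of -1.78 and a q-value of 0.0386, the log2 of the FPKM ratio with no pseudocount. Fzd6, a receptor of planar polarity in skin and hair, was at 1.97 and 1.03 FPKM in Mut and 3.14 and 2.70 FPKM in WT, 1.94-fold lower (log2 difference -0.67, limma unadjusted p = 0.0305). Without Mut 2 its difference was -0.40 (unadjusted p = 0.115).

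The more abundant Frizzled genes also had lower means in Mut than in WT. Fzd2 led, at 32.7 and 18.7 FPKM in Mut and 42.0 and 30.8 FPKM in WT, with Mut 1 above WT 2. Fzd7 was at 13.3 and 6.68 FPKM in Mut and 19.2 and 14.1 FPKM in WT, and Fzd1 at 12.3 and 8.61 FPKM in Mut and 15.4 and 12.8 FPKM in WT. Both were separated, though by less than 1 FPKM between Mut 1 and WT 2. Fzd4, the receptor for norrin in blood vessels, was at 5.66 and 3.57 FPKM in Mut and 6.39 and 6.04 FPKM in WT. In Fzd2, Fzd7, Fzd1 and Fzd4 alike Mut 2 had the lowest value, and without that library their log2 differences were -0.13, -0.29, -0.17 and -0.12.

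The remaining Frizzled genes were low. Fzd8 was at 3.18 and 3.41 FPKM in Mut and 4.07 and 3.82 FPKM in WT, and Fzd9 at 0.982 and 0.816 FPKM in Mut and 1.00 and 1.93 FPKM in WT, both without overlap, though for Fzd9 the log2 difference of -0.35 was -0.077 without WT 2. Fzd3, a receptor used in axon growth, was at 4.01 and 3.80 FPKM in Mut and 4.12 and 3.26 FPKM in WT, a log2 difference of 0.071 with a 95% interval of -0.34 to 0.48. Fzd5, under the minimum, was at 0.795 and 0.561 FPKM in Mut and 1.11 and 0.651 FPKM in WT. These groups overlapped for Fzd3 and Fzd5.

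The co-receptor Lrp6 was at 12.5 and 7.77 FPKM in Mut and at 15.8 and 12.7 FPKM in WT (log2 difference -0.48), and its relative Lrp5 at 8.60 and 5.03 FPKM in Mut and 10.2 and 7.53 FPKM in WT (log2 difference -0.36). Lrp6 did not overlap between the groups, by a gap narrower than that between replicates, and Lrp5 did overlap. Without Mut 2 the differences were -0.17 and -0.027. The Ror receptors, which bind Wnt5a, showed no separation. Ror2 was at 3.90 and 3.14 FPKM in Mut and 3.68 and 3.05 FPKM in WT, and Ror1 at 2.55 and 1.16 FPKM in Mut and 1.57 and 2.41 FPKM in WT. Their log2 differences of 0.050 and -0.093 had 95% intervals of -0.38 to 0.48 and of -0.83 to 0.65.

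The genes listed as secreted antagonists, with Dkk3 placed there by its family name, included the most abundant genes of the group and split in direction. Sfrp4, the most abundant of the 48, was at 259 and 111 FPKM in Mut and at 332 and 149 FPKM in WT. Replicate 1 was the higher one in each group by a wider margin than the groups differed, and the log2 difference of -0.38 had a 95% interval of -1.71 to 0.94. It was 0.19 without WT 1 and 0.22 without Mut 2. Sfrp5 was next, at 148 and 163 FPKM in Mut and 105 and 136 FPKM in WT, higher in both Mut libraries (log2 difference 0.38, 95% interval -0.10 to 0.85; 0.19 without WT 1). Dkk3, a secreted relative of the Dickkopf inhibitors, was at 43.8 and 39.6 FPKM in Mut and 60.4 and 53.7 FPKM in WT, 1.37-fold lower without overlap (log2 difference -0.44, limma unadjusted p = 0.0337).

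Notum, an enzyme that strips the lipid from Wnt ligands outside the cell, was at 0.446 and 0.361 FPKM in Mut and at 1.69 and 1.33 FPKM in WT. It was 3.74-fold lower by the means of 0.403 ± 0.0606 and 1.51 ± 0.260 FPKM (SD, n = 2 each), with a limma log2 difference of -0.84 (standard error 0.19, unadjusted p = 0.00538, adjusted p = 0.614). Antisense gene Notumos covers 29.4% of the Notum exon bases, and as the strandedness of the libraries is not given, reads of the 2 genes may not have been told apart. Sfrp1 was at 11.0 and 9.62 FPKM in Mut and 11.4 and 11.7 FPKM in WT, a narrow gap, and Frzb at 15.7 and 15.9 FPKM in Mut and 19.5 and 15.8 FPKM in WT, with overlap. The low Sfrp2 and Dkk2 also overlapped, Sfrp2 at 1.63 and 1.71 FPKM in Mut and 0.839 and 1.63 FPKM in WT, and Dkk2 at 0.570 and 0.637 FPKM in Mut and 0.370 and 1.11 FPKM in WT.

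The R-spondins, secreted amplifiers of Wnt signalling, lay in different directions. Rspo3, known from blood vessels and from Wnt signalling in many organs, was at 4.11 and 2.89 FPKM in Mut, against 10.1 and 7.08 FPKM in WT. All Mut values were under all WT values, and the means of 3.50 ± 0.866 and 8.59 ± 2.14 FPKM (SD, n = 2 each) differed 2.45-fold (limma log2 difference -1.09, standard error 0.23, 95% interval -1.66 to -0.51, unadjusted p = 0.00413, adjusted p = 0.601). The authors' deposited table, from their own test, lists Rspo3 with a log2 change of -1.30, taken with no pseudocount, and a q-value of 0.00742. Rspo3 lies on chromosome 10 at 29452416 to 29535867 on the minus strand, and the antisense gene Gm48159 covers 13.1% of its exon bases.

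Rspo1 was higher in both Mut libraries, at 7.62 and 14.6 FPKM in Mut and at 7.01 and 7.40 FPKM in WT, and the difference stood in Mut 2. Its log2 difference was 0.50 with all libraries (95% interval -0.24 to 1.24), 0.072 without Mut 2 and 0.93 without Mut 1. Rspo2, at 7.56 and 8.72 FPKM in Mut and 8.13 and 9.57 FPKM in WT, and Rspo4, at 0.535 and 1.02 FPKM in Mut and 0.489 and 0.933 FPKM in WT, overlapped. Summed, the 4 R-spondins were at 19.8 and 27.3 FPKM in Mut, on either side of both WT sums, the higher of which was 25.7 FPKM.

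**Figure D3:**
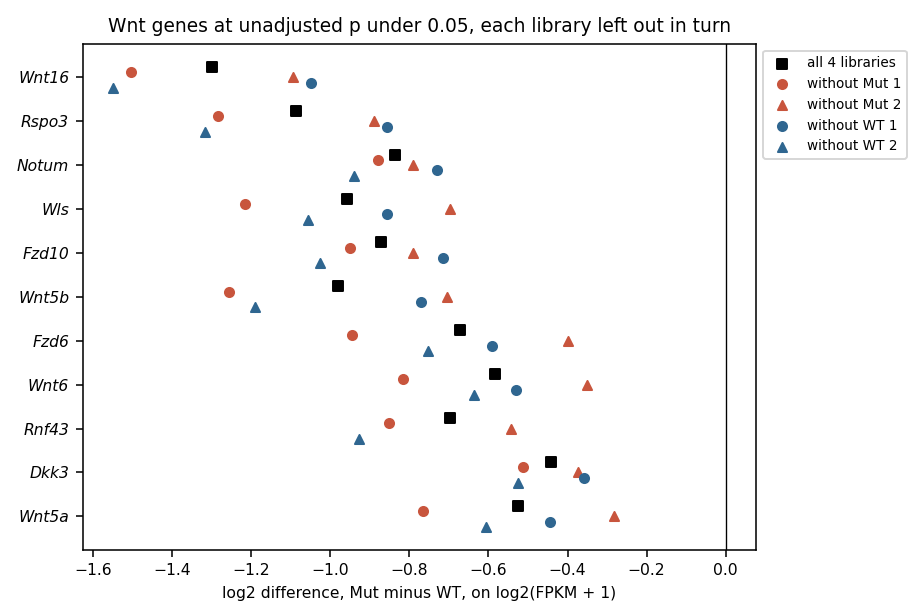
Log2 difference on log2(FPKM + 1), Mut minus WT, of the 11 Wnt genes at an unadjusted p under 0.05, with all 4 libraries (square) and with each library left out in turn (circles and triangles; Rnf43 was under the minimum without WT 1). All points lie below 0, and the differences without Mut 2 or without WT 1 are nearer to 0 than those without Mut 1 or without WT 2, as for Wnt16 at -1.05 without WT 1 and -1.55 without WT 2.

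Among the R-spondin receptors, Lgr4 was at 11.2 and 10.8 FPKM in Mut and at 17.1 and 12.3 FPKM in WT (log2 difference -0.37), without overlap. Without WT 1 its difference was -0.15. Lgr5, a stem cell marker in gut and skin, was at 2.17 and 1.67 FPKM in Mut and 1.64 and 1.54 FPKM in WT, slightly higher in both Mut libraries (log2 difference 0.17, 95% interval -0.27 to 0.61). The ubiquitin ligase gene Rnf43 was at 0.501 and 0.213 FPKM in Mut and 1.57 and 0.864 FPKM in WT, 3.40-fold lower (log2 difference -0.70, standard error 0.24, limma unadjusted p = 0.0325). Its partner Znrf3 was under the minimum, at 0.909 and 0.563 FPKM in Mut and 0.742 and 1.06 FPKM in WT, with overlap.

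Axin2, the gene most widely used to read out beta-catenin signalling, was at 2.89 and 2.87 FPKM in Mut and at 3.59 and 3.65 FPKM in WT. Replicates agreed closely, with means of 2.88 ± 0.00988 and 3.62 ± 0.0381 FPKM (SD, n = 2 each), and the 1.26-fold difference was larger than their spread. After limma had drawn its variance towards that of other genes, its log2 difference was -0.25 (standard error 0.14, 95% interval -0.62 to 0.11, unadjusted p = 0.136, adjusted p = 0.994). With any 1 library left out it ran from -0.26 to -0.24. Axin2 lies on chromosome 11 at 108920349 to 108950783 on the plus strand.

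The nuclear factors, which beta-catenin joins on DNA, all had a log2 difference below 0, against 50.9% of all genes. Of the 4, 3 were lower in both Mut libraries, against 19.6% of all genes. Lef1 was at 1.61 and 1.73 FPKM in Mut and 2.10 and 2.17 FPKM in WT (log2 difference -0.23), and Tcf7 at 1.48 and 1.08 FPKM in Mut and 1.61 and 1.77 FPKM in WT (-0.24). Tcf7l1, the most abundant of them and mainly a repressor, was at 7.53 and 7.17 FPKM in Mut and 8.26 and 8.71 FPKM in WT (log2 difference -0.18). Tcf7l2 overlapped, at 5.39 and 2.92 FPKM in Mut and 5.17 and 5.95 FPKM in WT, with Mut 2 alone low, and its log2 difference of -0.39 was -0.035 without that library. None of the 4 reached an unadjusted limma p of 0.05, where the smallest was 0.192.

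Other pathway genes were listed by role. Of 68 genes written, 61 were tested and 0 passed the adjusted threshold with limma, while 3 were lower and 1 higher at an unadjusted p under 0.05 (6.56%, against 4.36% of all genes). Of the 61, 16 were lower in both Mut libraries (26.2%, against 19.6% of all genes) and 8 were higher in both (13.1%, against 12.5%). In the list of other cell-surface and secreted proteins, 9 of 15 were lower in both Mut libraries and 1 was higher in both, with a median log2 difference of -0.26. The 3 lower ones were there: Ptk7, a polarity co-receptor, at 4.17 and 4.05 FPKM in Mut and 6.54 and 5.72 FPKM in WT (log2 difference -0.48); Apcdd1, a membrane-bound Wnt inhibitor, at 5.10 and 5.26 FPKM in Mut and 10.4 and 7.15 FPKM in WT (-0.64); and Trabd2b, which encodes a Wnt-cleaving protease, at 3.99 and 3.62 FPKM in Mut and 8.53 and 4.96 FPKM in WT (-0.65). Its most abundant members were the glypican gene Gpc3, with a log2 difference of -0.26, and Sostdc1, a secreted Wnt and BMP inhibitor, with 0.27.

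The remaining lists, which also hold some surface proteins, had medians between -0.037 and 0.044. The beta-catenin cascade had a median log2 difference of 0.017 over 18 genes. Of these, 4 were lower and 3 higher in both Mut libraries, against 19.6% and 12.5% of all genes. Ctnnb1, which encodes beta-catenin, was at 201 and 160 FPKM in Mut and 227 and 209 FPKM in WT (log2 difference -0.28), and Csnk1a1, a kinase that marks beta-catenin for destruction, differed by -0.15. For 12 nuclear cofactors the median was 0.0022, with Aes at 0.14 and Ctbp1 at 0.068. In that list Ctnnbip1, an inhibitor that blocks beta-catenin from Tcf7-type factors, was at 22.8 and 26.7 FPKM in Mut and 17.3 and 18.1 FPKM in WT (log2 difference 0.46, limma unadjusted p = 0.0283, adjusted p = 0.994). The median was 0.044 for 9 planar polarity genes, with Rhoa at -0.17 and Rac1 at 0.041, and -0.037 for 7 genes induced by beta-catenin in many tissues, with Ccnd1 at 0.24 and Cd44 at 0.0048. The difference between the lists was not tested.

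Markers of the meninges were lower in Mut together with the Wnt genes. All 15 on the list were listed in the table and none was at 0. They summed to 4166 and 3729 FPKM in Mut libraries 1 and 2 and to 14642 and 14261 FPKM in WT libraries 1 and 2, of which most was Ptgds. Of the 15, 12 were lower in both Mut libraries, against 19.6% of all genes. At an unadjusted limma p under 0.05 there were 11, all lower, against 3.01% of all genes. Their list had a median log2 difference of -1.28. The most abundant were Ptgds, a prostaglandin D synthase, at 3201 and 3025 FPKM in Mut and 13098 and 13055 FPKM in WT, and the matrix gene Ogn, at 568 and 460 FPKM in Mut and 585 and 500 FPKM in WT. Their part in the Wnt result was not tested.

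**Figure D4:**
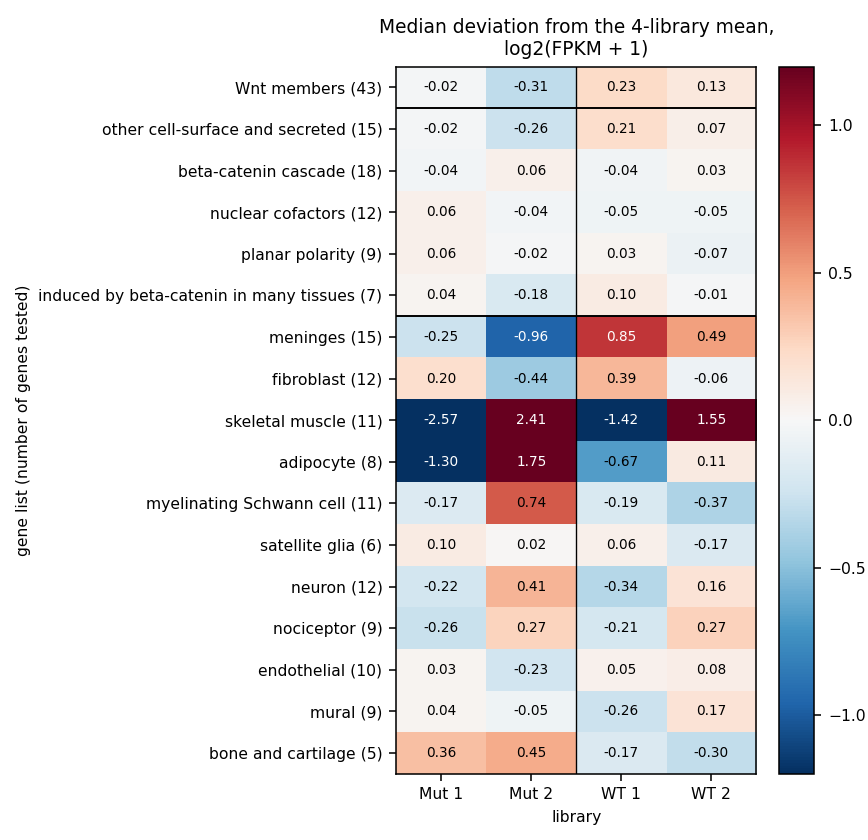
Median over each list's tested genes of the deviation from the gene's mean of the 4 libraries, on log2(FPKM + 1), for Mut libraries 1 and 2 and WT libraries 1 and 2 (columns). The Wnt genes stood at -0.021 and -0.31 in Mut and 0.23 and 0.13 in WT. That order of libraries was also the order of the meninges list (-0.25 and -0.96 in Mut, 0.85 and 0.49 in WT). It was likewise that of the other cell-surface and secreted list (-0.020 and -0.26 in Mut, 0.21 and 0.071 in WT). Skeletal muscle and adipocyte lists were higher in replicate 2 of each group.

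Fibroblast markers, 12 of 12 listed and none at 0, summed to 6796 and 3783 FPKM in Mut and to 6767 and 5305 FPKM in WT. Of the 12, 3 were lower in both Mut libraries, against 19.6% of all genes, and the median log2 difference was -0.30. The most abundant, the matrix genes Dcn and Col1a2, overlapped, with Dcn at 3710 and 1901 FPKM in Mut and 3462 and 3347 FPKM in WT, and Col1a2 at 769 and 411 FPKM in Mut and 802 and 426 FPKM in WT. The lower ones were Fn1, at 94.5 and 48.4 FPKM in Mut and 194 and 118 FPKM in WT (limma unadjusted p = 0.0288), Fbln1 and Clec3b. Endothelial markers, 10 of 10 listed, summed to 141 and 134 FPKM in Mut and 146 and 165 FPKM in WT. Of the 10, 3 were lower in both Mut libraries and 0 higher in both, against 19.6% and 12.5% of all genes. Their median log2 difference was -0.17. The most abundant, Egfl7 and Emcn, overlapped, with log2 differences of 0.066 and -0.27, and 8 of the 10 were below 0. Those lower in both Mut libraries were Cdh5, at 21.1 and 13.6 FPKM in Mut and 27.5 and 26.9 FPKM in WT (limma unadjusted p = 0.0327), Flt1 and Slco1a4. Myelinating Schwann cell markers, 11 of 11 listed, summed to 10216 and 21305 FPKM in Mut and 10352 and 8280 FPKM in WT. Of the 11, 6 were higher in both Mut libraries, against 12.5% of all genes. Nociceptor markers had a median log2 difference of 0.015, with 0 of 9 lower and 1 higher in both Mut libraries. Of 6 satellite glia markers (median 0.15), 1 was lower and 3 were higher in both. Of 9 mural markers (median 0.047), 1 was lower and 0 were higher. Of 5 bone and cartilage markers (median 0.47), 0 were lower and 3 were higher. The shares of all genes were 19.6% lower and 12.5% higher. None of these lists was at 0 in any library, and their part in the Wnt result was not tested.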

How the data were processed

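RNA was sequenced in bulk from dorsal root ganglia, and the authors deposited FPKM per gene for 2 Mut and 2 WT libraries, each assigned to its group by its title. The submitters' processing notes name the tools TopHat2 2.1.2, Cufflinks 2.2.1 and CASAVA and the build mm10. The sources used here do not give their settings, the strandedness or any library scaling. Every gene in the deposited matrix reached 1 FPKM in at least 1 library. The authors also deposited a table of 150 genes with group FPKM, a log2 fold change, a test score, and p-values with q-values, per the file headers. By its title, that table holds only genes past cutoffs on FPKM, fold change and false discovery rate. It has 129 genes lower in Mut and 21 higher. Its Mut and WT FPKM for the 3 Wnt genes in it, Wnt16, Rspo3 and Fzd10, equalled the means of the matrix columns. Other Wnt genes are not in it, among them Notum (3.74-fold lower in Mut), Rnf43 (3.40-fold) and Wnt5b (2.46-fold). FPKM totals were 629900 and 686830 in Mut and 620018 and 674082 in WT. Read depth is unknown, so no counting interval is given.

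FPKM were tested as log2(FPKM + 1) with limma 3.58.1 in R 4.3.3, Mut minus WT, with a variance prior that follows the mean, on genes whose Mut or WT mean reached 1 FPKM. This scale understates the change of low genes. The 2 residual degrees of freedom were joined by 3.44 from other genes, and p-values were adjusted by Benjamini and Hochberg over all genes tested (threshold 0.05). The fit was also run on simulated data. Their noise was independent between libraries, whereas same-numbered libraries here deviated together, so that run does not vouch for these p-values. Fold values are ratios of group mean FPKM. Gene positions and overlaps come from GENCODE M21 on GRCm38 (mm10) and promoters from RefSeq on GRCm38.p6. Each Wnt gene found is given. Of the pathway lists, the genes named are those at an unadjusted p under 0.05 and the 2 most abundant of each list. Of the meninges, fibroblast and endothelial markers, they are the 2 most abundant of each list. The Wnt genes and all lists were chosen with earlier results of these data known, and Fn1, Fbln1, Clec3b, Cdh5, Flt1 and Slco1a4 were named after their values were seen. Alternatives were a pseudocount of 0.1, no minimum, a minimum of 5 FPKM, 2 rescalings, a prior without trend, a replicate block and leaving out each library.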

Additional observations from a re-analysis of the deposited data

How the results depend on the processing

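Of the 43 tested Wnt genes, 36 kept their direction under each of the 11 alternatives that gave them a value; 24 had a value under all 11, since 19 were under the minimum of 5 FPKM and Rnf43 also under that of 1 FPKM without WT 1. The 7 others turned only where a library was left out, their log2 differences running from -0.69 to 0.040 for Wnt2b, -0.055 to 0.31 for Wnt10a, -0.062 to 0.20 for Fzd3, -0.071 to 0.17 for Ror2, -0.45 to 0.27 for Ror1, -0.99 to 0.22 for Sfrp4 and -0.28 to 0.0022 for Frzb; for Ror2 it was -0.054 without WT 2, and for Ror1 0.11 without WT 2, and for Sfrp4 0.19 without WT 1. A minimum of 5 FPKM left fewer genes tested. Of 24 Wnt genes, 14 were then lower in both Mut libraries (58.3%, against 19.3% of all genes). At an unadjusted limma p under 0.05 there were 6 Wnt genes (25%), against 400 genes in all (4.09%). With each library left out in turn, Wnt genes at that p numbered 7 to 21, all genes at that p 440 to 1807, and all genes past the adjusted threshold 0 to 5 (5 without WT 1). With 1 library left in a group, groups separate more easily: 28 to 34 Wnt genes were lower without overlap (65.1% to 75.6%, against 32.8% to 37.2% of all genes) and 5 to 7 higher (11.1% to 16.3%, against 22.2% to 40.6%), and the median ran from -0.46 to -0.18. Replicate numbers in the labels do not say what is shared, and with 2 pairs they were not taken as pairs, although same-numbered libraries deviated together (r = 0.48 across 14040 genes, which are not independent replicates). With a replicate block, 1 Wnt gene (Wnt16, log2 difference -1.30, limma adjusted p = 0.0430) and 61 genes in all passed the adjusted threshold. Prdm12 was among those that passed (-2.14, limma adjusted p = 0.0250). With that block, 21 Wnt genes (48.8%) had an unadjusted limma p under 0.05, against 1474 genes in all (10.5%). After median-ratio rescaling and after quantile normalization, 22 Wnt genes were lower in both Mut libraries (51.2%), against 15.9% and 15.4% of all genes. The causes were not tested. Depth is unknown, and genes near 1 FPKM (Notum, Fzd10 and Rnf43 among them) rest on the fewest fragments per length.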
